A study of Mus musculus with 6 samples.

Results

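The immediate early genes and the message-decay genes that act with them were examined in mouse lung fibroblasts made to express trSrebf1, the active form of Srebf1c, a transcription factor that drives lipid synthesis. The 38 genes were chosen by name. They cover subunits of the AP-1 transcription factor and the EGR, NR4A and KLF transcription factors. They also cover phosphatases and other feedback inhibitors, and factors that remove messages with AU-rich ends. Like the related lists below, they were chosen with earlier results of these data known. Shares set beside those of all tested genes are therefore a description. All 38 had a row among the 19865 gene symbols of the count tables, and 37 passed the filter on low counts. Of those 37, 29 were lower in trSrebf1 cells (78.4%, against 13.0% of all tested genes). Higher were 3 (8.11%, against 17.2%), Gadd45b, Maff and Btg1, of which Gadd45b alone kept its call in every alternative fit. Another 5 did not pass the test (Jun, Klf9, Klf10, Zfp36l2 and Gadd45a).

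Immediate early genes are transcribed within minutes of a growth factor, injury or mechanical signal, without new protein synthesis. Kinases of the MAP kinase cascade act on factors such as SRF with its ELK partners and CREB, which already sit at these genes, and the products then switch on a later set of genes. The response is short because the same signal induces its own brakes, among them phosphatases that inactivate MAP kinases and ZFP36 proteins, which bind AU-rich elements in messages and recruit the CCR4-NOT complex that removes the polyA tail. In fibroblasts AP-1 and EGR factors are known for their part in proliferation and matrix production, and the genes are also known to be induced when a tissue is digested into single cells.

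Both groups were primary lung fibroblasts from Col1a2-GFP transgenic mice of the C57BL/6 strain, in which the Col1a2 promoter drives a green reporter. The trSrebf1 group was transduced by retrovirus with doxycycline-inducible trSrebf1, and the control group with the control vector; hLNGFR, a human surface receptor, marked transduced cells in both. In both groups, C57BL/6 hosts were given the lung-injuring drug bleomycin at 2 mg/kg, then 5000000 transduced cells through the trachea on day 5 and doxycycline on day 7. Donor cells were recovered on day 10 by digestion of the lung for 60 min at 37 °C and sorting of live cells that carried the reporter and hLNGFR and lacked CD45, CD31, Ter119, EpCAM and CD146. Each library was made from 10000 sorted cells by 3'SAGE-seq, which counts messages by short 3' tags. There were 3 trSrebf1 and 3 control libraries. The labels give neither the age of the mice nor whether the 3 libraries of a group stem from different animals or cultures; p-values then reflect only how far these libraries scatter, and part of that scatter may be technical.

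Library totals were 4151691 to 4688196 counts in trSrebf1 and 3675146 to 4134354 in control. Srebf1 itself, the check of the labels, had 133, 123 and 108 counts in trSrebf1 and 32, 20 and 33 counts in control (log2 fold change 1.98 ± 0.23, SE); whether tags of the vector fall on this row is not given in the sources used here. CPM scales the counts of each library to a common total, here adjusted by the trimmed mean of M-values (TMM). Fibroblast markers summed to 20233, 23139 and 22659 CPM in trSrebf1 and 33690, 28707 and 29138 CPM in control. Of the 7 markers, 6 were lower in trSrebf1 (85.7%, against 13.0% of all tested genes), among them Dcn, Col3a1 and Col1a2. Col1a1 did not pass the test. Markers of blood, endothelial and epithelial cells were low. Their summed level was 0.457 to 1.52 CPM in trSrebf1 and 0 to 1.57 CPM in control for macrophages (Cd68, Mrc1 and Csf1r), and 7.31 to 9.64 CPM in trSrebf1 and 7.08 to 9.18 CPM in control for the neutrophil marker Csf3r. It was 0.860 to 2.06 CPM in trSrebf1 and 0.944 to 1.57 CPM in control for endothelium, where Pecam1 had 0 counts in every trSrebf1 library, and 4.34 to 20.0 CPM in trSrebf1 and 7.60 to 13.7 CPM in control for epithelium, mostly Sftpb and Sftpc. The lymphocyte marker Cd3d reached 1.37 CPM in trSrebf1 and 0.258 CPM in control at most, and erythroid markers 0.860 CPM in trSrebf1 and 0.472 CPM in control. Pericyte and smooth muscle markers were higher than these, and summed to 109.2 to 149.2 CPM in trSrebf1 and 33.8 to 38.5 CPM in control; most of this was Cspg4, which rose in trSrebf1 (log2 fold change 2.87 ± 0.21, SE), while Cnn1 fell (-1.82 ± 0.29), as did Myh11 (-1.14 ± 0.42; adjusted p = 0.0497, and 0.202 without trSrebf1 1), and Rgs5 had 0 or 1 count in each library.

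Before the values, the AU-rich elements of the members are shown, since they are the sites that the ZFP36 proteins of the set are known to bind. The nonamer TTATTTATT, in capitals with 8 bases on either side, was found in the annotated 3' untranslated region of 8 of the 37 tested members (21.6%), against 8.61% of 9172 tested genes with such a region. The sequences are from the mouse genome GRCm38 (mm10) with the GENCODE annotation, written 5′ to 3′ on the strand of the message.
Fos, chr12:85477105-85477129, plus strand: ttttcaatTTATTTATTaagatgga
Dusp1, first site, chr17:26506161-26506185, minus strand: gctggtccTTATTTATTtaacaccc
Dusp1, the second site, chr17:26505872-26505896, minus strand: ttttacctTTATTTATTtttgtgta
Zfp36, chr7:28376953-28376977, minus strand: tgacgactTTATTTATTgtattaag
Zfp36l1, chr12:80108169-80108193, minus strand: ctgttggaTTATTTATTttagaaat
Zfp36l2, chr17:84184916-84184940, minus strand: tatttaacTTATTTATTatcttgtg
Cebpd, chr16:15889230-15889254, plus strand: ttggacatTTATTTATTgtaacaga
Maff, first site, chr15:79358780-79358804, plus strand: ccacactcTTATTTATTgcacgaat
The eighth member was Fosl2, and Maff held a second site. All 3 ZFP36 genes carried the element that their own products are known to bind.

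The promoters of 4 members that held a match are shown. Capitals mark matches to the elements through which SRF or CREB is known to act on such genes. They are the 250 bases before the RefSeq start on GRCm38.p6, written 5′ to 3′ on the gene's strand. In Zfp36 the match is to the CArG box, the SRF site. In Btg2, Dusp1 and Maff it is to the cAMP response element TGACGTCA, the CREB site. A match describes the sequence, and whether SRF or CREB binds there was not examined.
Zfp36, chr7:28379229-28379478, minus strand: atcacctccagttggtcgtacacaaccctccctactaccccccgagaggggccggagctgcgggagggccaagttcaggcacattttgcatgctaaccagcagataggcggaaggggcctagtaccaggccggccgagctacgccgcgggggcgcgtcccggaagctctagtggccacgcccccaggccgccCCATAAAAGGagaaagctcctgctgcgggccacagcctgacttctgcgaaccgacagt
Btg2, chr1:134079156-134079405, minus strand: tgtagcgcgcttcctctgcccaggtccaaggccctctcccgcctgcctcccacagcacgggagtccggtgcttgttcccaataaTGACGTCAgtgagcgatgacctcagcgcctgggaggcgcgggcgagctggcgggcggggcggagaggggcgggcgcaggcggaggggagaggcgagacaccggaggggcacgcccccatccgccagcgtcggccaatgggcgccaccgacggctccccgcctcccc
Dusp1, chr17:26508473-26508722, minus strand: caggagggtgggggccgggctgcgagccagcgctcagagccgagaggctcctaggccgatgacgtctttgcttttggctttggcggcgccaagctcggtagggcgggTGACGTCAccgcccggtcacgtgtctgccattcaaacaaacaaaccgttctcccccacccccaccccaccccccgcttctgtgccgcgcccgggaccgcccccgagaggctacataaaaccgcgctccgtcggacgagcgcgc
Maff, chr15:79347270-79347519, plus strand: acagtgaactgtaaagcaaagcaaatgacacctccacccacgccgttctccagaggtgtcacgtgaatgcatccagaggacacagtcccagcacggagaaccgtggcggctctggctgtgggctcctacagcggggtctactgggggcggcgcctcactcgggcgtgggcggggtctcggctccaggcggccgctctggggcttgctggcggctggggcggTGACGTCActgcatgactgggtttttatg
The CArG match of Zfp36 begins 58 bases before the start. The match to the cAMP response element begins 166 bases before it in Btg2, 143 in Dusp1 and 29 in Maff. Maff had several RefSeq starts, and of their windows only that shown held the element.

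Taken as a set, the 38 genes made up 2.95, 3.26 and 2.90% of all counts in trSrebf1 libraries, and 4.77, 4.39 and 5.12% in control libraries. Their summed level was 29714, 34391 and 29810 CPM in trSrebf1, against 48678, 41602 and 49924 CPM in control, so every trSrebf1 library lay below every control library. In these bulk samples, fewer cells that respond and less RNA per cell cannot be told apart. The median log2 fold change of the 37 tested members was -0.73, against -0.01 over all 10194 tested genes. Lower in trSrebf1 were 78.4% of the members, with an edgeR quasi-likelihood test and Benjamini-Hochberg adjustment over all tested genes (adjusted p under 0.05), against 13.0% of all tested genes; higher were 8.11% of the members and 17.2% of all. The fall passed 1 on the log2 scale for 13 members (35.1%, against 5.85% of all tested genes), lay between 0.5 and 1 for 9 and under 0.5 for 7. Fosl1 passed the filter through its control libraries alone; without it, 28 of 36 members were lower, 12 of them by over 1, and the median was -0.69. In 32 members (86.5%) the trSrebf1 and control libraries did not overlap, against 43.4% of all tested genes. The members were abundant, and the median tested member had a higher mean CPM than 90.1% of tested genes. The shares of all tested genes given here were not matched for level, and the members were chosen with earlier results of these data known.

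The libraries within a group were not alike in these genes. Library trSrebf1 2 was the highest of its group in 23 of the 37 tested members, and control 2 the lowest of its group in 23, and in the summed level these 2 libraries lay nearest the other group. Lower were 28 members without trSrebf1 2 and 29 without control 2, and over all 6 ways of leaving out 1 library 26 to 29 were lower and 2 or 3 higher. The fewest, 26, came without control 1 and without trSrebf1 1. Heat shock genes were listed for stress during digestion, but whether digestion set their level was not tested. They summed to 4308, 5946 and 4999 CPM in trSrebf1 and 6943, 6596 and 7435 CPM in control. Here trSrebf1 2 was again the highest of its group and control 2 the lowest of its own. Of 11 heat shock genes, 2 were lower in trSrebf1 (18.2%, against 13.0% of all tested genes). They were Hspb1 (log2 fold change -0.63 ± 0.12, SE; adjusted p = 0.00041) and Dnaja1 (-0.51 ± 0.19; adjusted p = 0.0488). The call of Dnaja1 was lost without control 2 (adjusted p = 0.259), by DESeq2 (0.0713), by limma-voom (0.0629) and in further fits. By edgeR 0 were higher, as at an unadjusted p under 0.05 (0) and by DESeq2 and limma-voom (0 each), and Hspa1a (-0.14) and Hspa1b (-0.09) did not pass the test. The part of heat shock, of the fibroblast markers and of Cspg4 in the fall of the members was not tested.

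**Figure D1:**
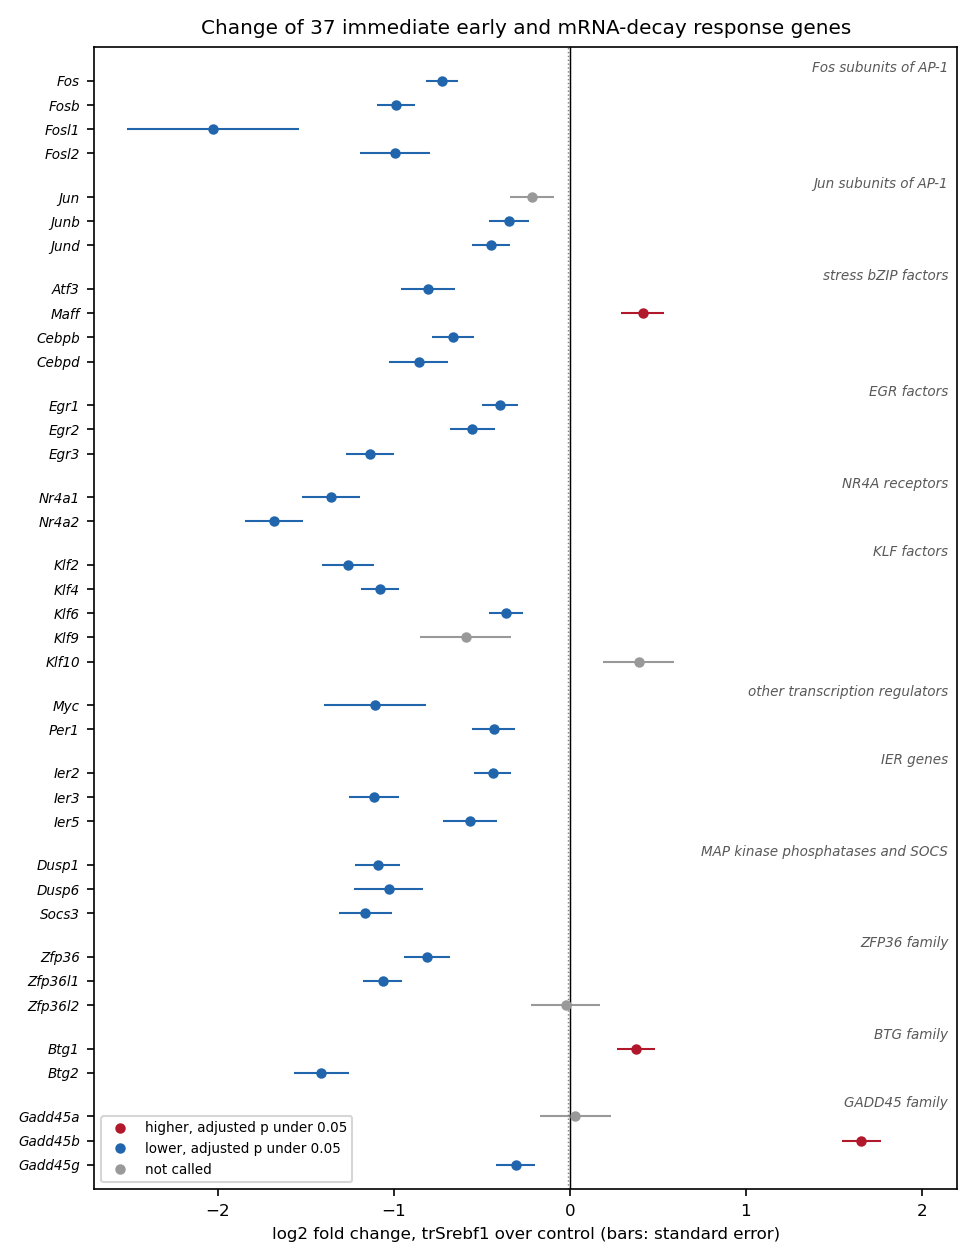
Log2 fold change, trSrebf1 over control, of the 37 tested members by role, with standard errors as bars; the dotted line marks the median of all tested genes. Of the 37 points, 29 are lower past the threshold, 3 are higher and 5 are grey because they did not pass the test.

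AP-1 is a dimer of a Fos and a Jun protein, and Fos, Fosb and Fosl2 fell. Fos, the founding member, had 4033, 4246 and 3801 CPM in trSrebf1, against 6625, 6669 and 6689 CPM in control. The libraries of each group lay close together and far from the other group, and the log2 fold change was -0.73 ± 0.09 (SE; edgeR adjusted p = 7.75e-06). Fosb, which shares its dimer partners, had 1091, 1248 and 1166 CPM in trSrebf1, against 2479.7, 1986 and 2479 CPM in control. Here too all trSrebf1 libraries lay below all control libraries (log2 fold change -0.99 ± 0.11, SE; adjusted p = 1.84e-06), and the ratio of Fos to Fosb within a library overlapped between the groups. Fosl1 and Fosl2 encode Fra-1 and Fra-2, which lack the strong activation domain of Fos. Fosl2 was counted 65, 45 and 71 times in trSrebf1, against 102, 122 and 106 times in control, and the groups did not overlap (log2 fold change -0.99 ± 0.20, SE; adjusted p = 0.000849). Fosl1 was measured by few tags, with 3, 6 and 5 counts in trSrebf1 and 20, 11 and 23 counts in control, and the groups did not overlap. It passed the filter on low counts through its control libraries alone, where it is high, so a difference was built into its being tested.

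Of the Jun subunits, 2 of 3 fell. Jun, the strongest activator among them, had 566, 747 and 699.6 CPM in trSrebf1, against 777, 669.8 and 884 CPM in control; the groups overlapped, and it did not pass the test (log2 fold change -0.21 ± 0.12, SE; adjusted p = 0.227). Jund, which is known to be made more steadily than the other subunits, fell with 769, 871 and 745 CPM in trSrebf1, against 1082, 978 and 1189.6 CPM in control (log2 fold change -0.45 ± 0.11, SE; adjusted p = 0.00379). Junb, which can oppose Jun in the dimer, had 168, 179 and 186 CPM in trSrebf1, against 236, 198 and 242 CPM in control (log2 fold change -0.35 ± 0.11, SE; adjusted p = 0.0254). The call of Junb was lost without control 1 (adjusted p = 0.0596), control 3 (0.122), trSrebf1 1 (0.113) or trSrebf1 2 (0.0635).

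Among the stress-responsive bZIP factors, 3 of 4 fell. Atf3, a repressor induced by stress, had 65.6, 72.3 and 48.7 CPM in trSrebf1, against 105, 96.2 and 124 CPM in control (log2 fold change -0.81 ± 0.15, SE; adjusted p = 0.000576). Cebpb and Cebpd, which act in inflammation and adipocyte differentiation, both fell, and their ratio within a library overlapped between the groups. Cebpb had 913, 890.2 and 1021 CPM in trSrebf1, against 1753, 1234 and 1487 CPM in control (log2 fold change -0.66 ± 0.12, SE; adjusted p = 0.000378), and Cebpd had 46.9, 50.8 and 50.5 CPM in trSrebf1, against 109.9, 94.2 and 64.9 CPM in control (log2 fold change -0.86 ± 0.17, SE; adjusted p = 0.000826). Maff, a small Maf protein without an activation domain, went the other way. It had 113, 126 and 107 CPM in trSrebf1, against 92.8, 82.6 and 84.4 CPM in control, and the groups did not overlap (log2 fold change 0.42 ± 0.12, SE; adjusted p = 0.0142). That rise was lost without control 2 (adjusted p = 0.0558), control 3 (0.0762) or trSrebf1 2 (0.0614), and with upper-quartile factors (0.0576).

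EGR factors are zinc finger proteins that bind GC-rich sites, and all 3 fell. Egr1 had 427, 488 and 481 CPM in trSrebf1, against 595, 607 and 637 CPM in control (log2 fold change -0.40 ± 0.10, SE; adjusted p = 0.00598). Egr2 had 111, 126 and 117 CPM in trSrebf1, against 199.8, 146 and 173 CPM in control (log2 fold change -0.55 ± 0.13, SE; adjusted p = 0.00255), and its ratio to Egr1 within a library overlapped between the groups. Egr3, which EGR1 and NFAT are known to induce, had 140.2, 193 and 174 CPM in trSrebf1, against 385, 312 and 418 CPM in control. Of the 3 genes it had the largest fitted fall (log2 fold change -1.14 ± 0.14, SE; adjusted p = 6.1e-06), and in each of the 3 no trSrebf1 library reached the lowest control library.

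Both NR4A genes, orphan nuclear receptors whose activity follows their own level, fell. Nr4a1 had 48.6, 56.6 and 34.3 CPM in trSrebf1, against 120.4, 104 and 132 CPM in control (log2 fold change -1.36 ± 0.17, SE; adjusted p = 8.42e-06). Nr4a2 had 21.9, 21.3 and 16.7 CPM in trSrebf1, against 62.4, 60.1 and 69.6 CPM in control, and all trSrebf1 libraries lay far below all control libraries (log2 fold change -1.68 ± 0.16, SE; adjusted p = 4.02e-07). In neither gene did a trSrebf1 library come near the lowest control library.

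**Figure D2:**
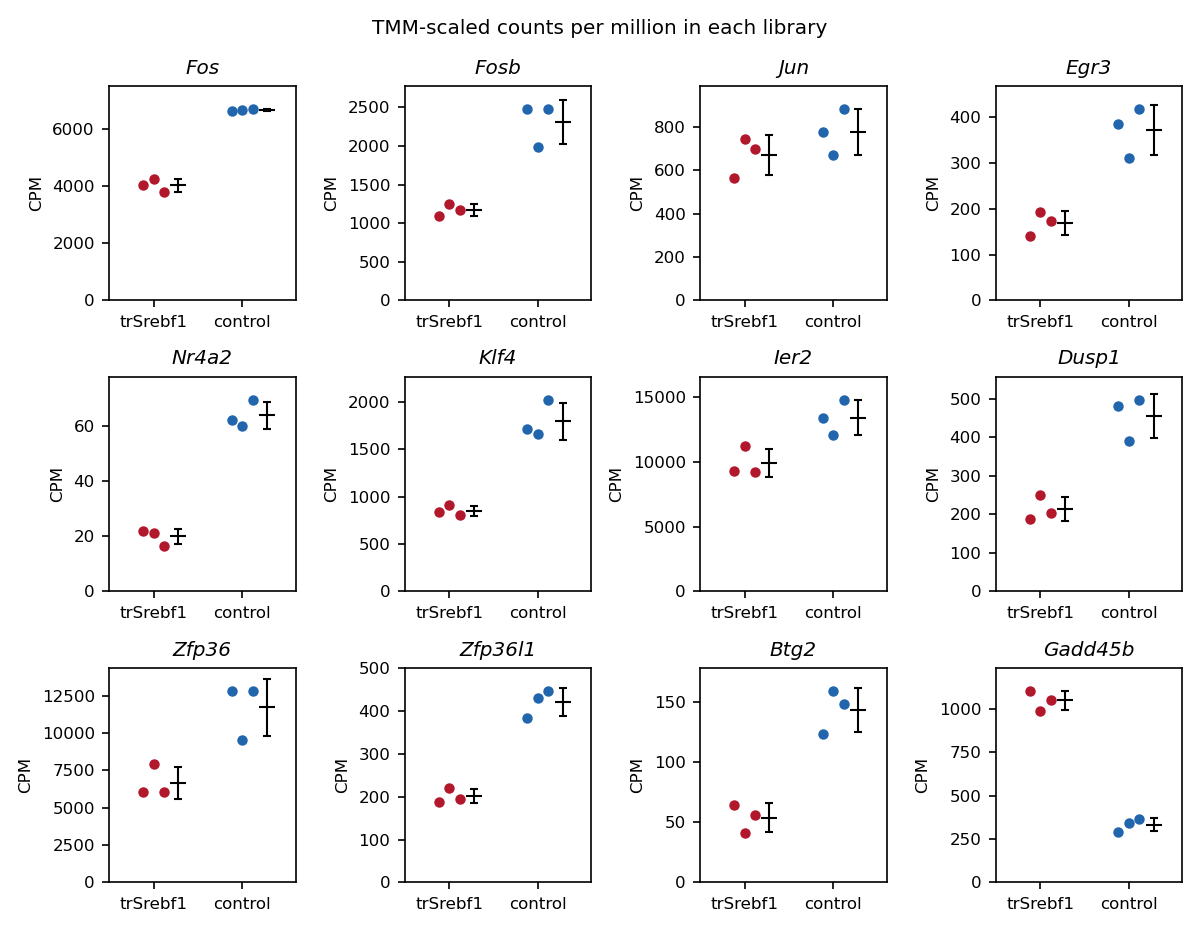
TMM-scaled CPM of 12 members in each library, with trSrebf1 libraries left and control libraries right of each panel; black marks give the mean and SD (n = 3 each). In Jun the groups overlap, in Gadd45b every trSrebf1 library lies above every control library, and in the other 10 panels every trSrebf1 library lies below.

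KLF factors are zinc finger proteins that bind CACCC sites, and 3 of the 5 fell. Klf2, known from quiescent endothelium, had 44.5, 65.2 and 46.6 CPM in trSrebf1, against 128, 120.0 and 126 CPM in control (log2 fold change -1.26 ± 0.15, SE; adjusted p = 3.36e-06). Klf4, a factor of cell identity and quiescence, had 834, 909 and 808 CPM in trSrebf1, against 1711, 1656 and 2019 CPM in control (log2 fold change -1.08 ± 0.11, SE; adjusted p = 4.67e-07). In these genes each trSrebf1 library lay far below the control libraries. Klf6, which tissue injury is known to induce, had 587, 555 and 577 CPM in trSrebf1, against 761, 718 and 731 CPM in control, a smaller fall that still left the groups apart (log2 fold change -0.36 ± 0.10, SE; adjusted p = 0.00823). Klf9, a glucocorticoid-induced repressor, had 15.9, 22.6 and 13.9 CPM in trSrebf1, against 38.02, 19.9 and 20.99 CPM in control; the groups overlapped, and it did not pass the test (log2 fold change -0.59 ± 0.26, SE; adjusted p = 0.102), though it did without trSrebf1 2 (adjusted p = 0.0430). Klf10, which TGF-beta is known to induce, had 30.8, 25.6 and 22.2 CPM in trSrebf1, against 15.5, 21.9 and 22.4 CPM in control, and did not pass either (log2 fold change 0.39 ± 0.20, SE; adjusted p = 0.159).

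Myc and Per1 are the other transcription regulators of the set. Myc, a driver of growth and ribosome production, was counted 19, 16 and 22 times in trSrebf1 and 42, 36 and 35 times in control, and the groups did not overlap (log2 fold change -1.11 ± 0.29, SE; adjusted p = 0.00688). Per1, a clock gene that CREB and glucocorticoids induce, had 121, 122 and 120.1 CPM in trSrebf1, against 194, 149 and 146 CPM in control (log2 fold change -0.43 ± 0.12, SE; adjusted p = 0.0127). The trSrebf1 libraries were nearly equal, while control 1 stood above the other control libraries. Without control 1 the log2 fold change of Per1 was -0.29 and the adjusted p was 0.0737.

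The IER genes, small proteins named for their immediate early response, all fell. Ier2 had 9322, 11196 and 9244 CPM in trSrebf1, against 13394, 12106 and 14781 CPM in control (log2 fold change -0.44 ± 0.10, SE; adjusted p = 0.00369). Ier3, which takes part in survival and ERK signalling, had 40.9, 50.8 and 38.6 CPM in trSrebf1, against 91.8, 92.9 and 96.5 CPM in control, and its groups were far apart (log2 fold change -1.11 ± 0.14, SE; adjusted p = 8.85e-06). Ier5, which is known to act on the heat shock factor HSF1, had 31.6, 39.6 and 40.2 CPM in trSrebf1, against 59.3, 53.2 and 52.4 CPM in control (log2 fold change -0.57 ± 0.15, SE; adjusted p = 0.00890), a call that was lost without trSrebf1 1 (adjusted p = 0.0569).

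Of the 4 feedback inhibitors, the 3 that could be tested fell. Dusp1, the nuclear phosphatase that inactivates p38 and JNK, had 189, 249.7 and 204 CPM in trSrebf1, against 481, 390.4 and 497 CPM in control (log2 fold change -1.09 ± 0.13, SE; adjusted p = 3.43e-06). Dusp6, the cytoplasmic phosphatase of ERK, had 27.5, 42.9 and 23.3 CPM in trSrebf1, against 70.3, 56.5 and 63.7 CPM in control (log2 fold change -1.03 ± 0.20, SE; adjusted p = 0.000701). In both, the 3 trSrebf1 libraries were the 3 lowest, and the ratio of Dusp1 to Dusp6 overlapped between the groups. Socs3, which blocks cytokine receptors that signal through STAT3, had 43.4, 39.6 and 56.9 CPM in trSrebf1, against 113, 96.5 and 104 CPM in control (log2 fold change -1.16 ± 0.15, SE; adjusted p = 1.05e-05). Dusp5, the nuclear phosphatase of ERK, had 4, 6 and 1 counts in trSrebf1 and 7, 10 and 6 in control, too few to be tested.

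Of the 5 message-decay factors, 3 fell, 1 rose and 1 did not pass the test. Zfp36, also called tristetraprolin, had 6067, 7925 and 6069 CPM in trSrebf1, against 12819, 9538 and 12812 CPM in control (log2 fold change -0.81 ± 0.13, SE; adjusted p = 0.000193). Zfp36l1 had 189, 219.5 and 195 CPM in trSrebf1, against 384, 429.9 and 447 CPM in control (log2 fold change -1.06 ± 0.11, SE; adjusted p = 8.25e-07), and its groups did not overlap. Zfp36l2 had 779, 803 and 832 CPM in trSrebf1, against 1035, 547 and 871 CPM in control, and it did not pass the test (log2 fold change -0.02 ± 0.20, SE; adjusted p = 0.948). Its trSrebf1 libraries were close together and lay between control 2 and control 3. BTG proteins bind the CCR4-NOT deadenylase and slow the cell cycle. Btg2, a p53 target, fell and had 64.3, 41.1 and 56.4 CPM in trSrebf1, against 124, 159 and 148 CPM in control (log2 fold change -1.41 ± 0.16, SE; adjusted p = 2.77e-06). Btg1 had 291, 253 and 262 CPM in trSrebf1, against 187, 214 and 219.9 CPM in control, and rose (log2 fold change 0.38 ± 0.11, SE; adjusted p = 0.0139), a call that was lost without trSrebf1 1 (adjusted p = 0.0734), with total counts (0.0515) and with upper-quartile factors (0.0592). A stretch of 275 bases in the last 300 of the Btg1 message matches the processed pseudogene Gm14519 at 98.5%, so the counts of Btg1 are uncertain.

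GADD45 proteins bind stress kinases of the p38 and JNK pathways, and of the 3 genes 1 rose, 1 fell and 1 did not pass the test. Gadd45b, which NF-kappaB and TGF-beta are known to induce, had 1103, 990.2 and 1052 CPM in trSrebf1, against 291, 341 and 366 CPM in control. Every trSrebf1 library lay above every control library, and the rise, 3.15-fold, was the largest of the set (log2 fold change 1.66 ± 0.11, SE; adjusted p = 3.47e-09). Gadd45a, a p53 target, had 21.5, 17.8 and 18.5 CPM in trSrebf1, against 14.9, 19.9 and 21.7 CPM in control, with overlap and no call (log2 fold change 0.03 ± 0.20, SE; adjusted p = 0.929). Gadd45g had 1378, 1491 and 1460.2 CPM in trSrebf1, against 2099, 1591 and 1664 CPM in control (log2 fold change -0.31 ± 0.11, SE; adjusted p = 0.0463), near the threshold; without control 1 the log2 fold change was -0.17 and the adjusted p was 0.193, and the call was also lost without control 3 (0.0568), trSrebf1 1 (0.166), trSrebf1 2 (0.0815) or trSrebf1 3 (0.113), with RLE size factors (0.0582) and by DESeq2 (0.0815).

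Across the set, 12 of the 38 genes share exon bases with a gene annotated on the opposite strand, among them Fosl1 with Ccdc85b, Jun with Junos, Junb with Prdx2, Jund with Gm11175, Cebpb with Tmem189, Cebpd with Spidr, Dusp1 with Ergic1, Gadd45a with E230016M11Rik, and all 3 ZFP36 genes. Whether the counting used strand is not given in the sources used here. Tags on the shared bases of such a pair cannot be told apart here, and these values are uncertain. The largest overlap of a gene ran from 11 bases in Dusp1 to 1672 in Zfp36l1, and whether tags fall on the shared bases was not examined.

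**Figure D3:**
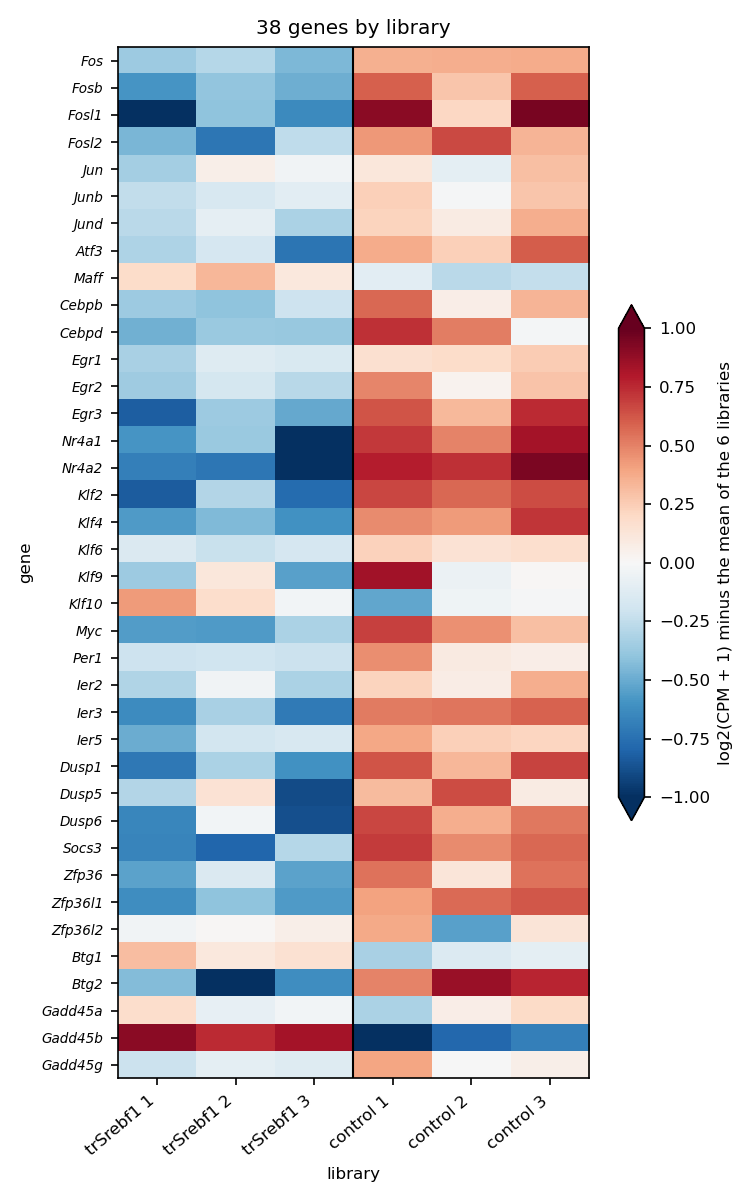
Level of each of the 38 members in the 6 libraries, as log2(CPM + 1) less the mean of the 6 libraries, with trSrebf1 libraries left of the line and control libraries right. Most rows are blue in trSrebf1 and red in control; Gadd45b, Maff and Btg1 show the opposite order.

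Ratios between related genes within a library, taken on CPM plus 1, depend little on how libraries are scaled, and 14 such pairs were compared. In 5 pairs the groups did not overlap. How often this holds for pairs of other genes was not measured, and of single tested genes 43.4% did not overlap. The log2 ratio of Btg2 to Btg1 was -2.16, -2.59 and -2.20 in trSrebf1 and -0.60, -0.42 and -0.56 in control, a difference of -1.79. For Gadd45a over Gadd45b it was -5.62, -5.72 and -5.75 in trSrebf1, against -4.19, -4.04 and -4.02 in control. In these 2 pairs no library of either group reached the range of the other. The ratio of Zfp36 to Zfp36l2 was lower by 0.83 in trSrebf1 and that of Klf2 to Klf6 by 0.90, whereas Nr4a1 over Nr4a2 was higher by 0.28. With 3 against 3 libraries, an exact two-sided permutation test cannot go below p = 0.1, the value each of these 5 pairs had, and adjusted over the 14 pairs it was 0.28. The other 9 pairs, among them Fos over Fosb (difference 0.25), Egr1 over Egr2 (0.14) and Dusp1 over Dusp6 (-0.05), overlapped.

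**Figure D4:**
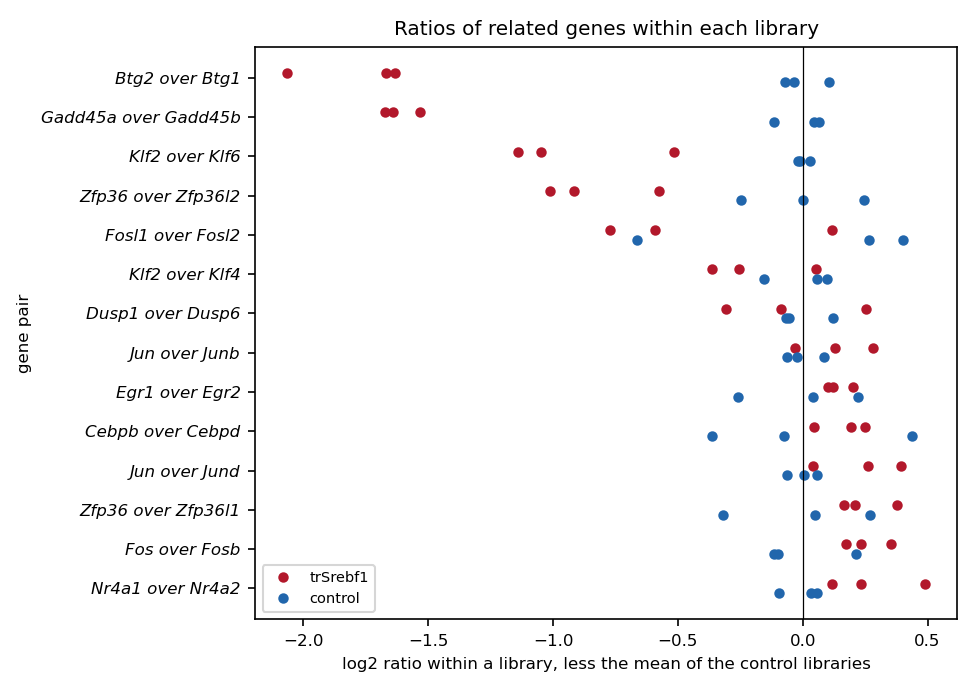
Log2 ratio of 2 related members within each library, less the mean of the control libraries, for 14 pairs; each point is 1 library. The trSrebf1 points lie apart from the control points for Btg2 over Btg1, Gadd45a over Gadd45b, Klf2 over Klf6, Zfp36 over Zfp36l2 and Nr4a1 over Nr4a2.

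Related genes outside the set were read from the same fit, and values in parentheses are log2 fold changes with their SE and the edgeR adjusted p. Their counts stand beside 17.2% higher and 13.0% lower of all tested genes. Of 16 factors that act upstream of immediate early genes (SRF with its ELK and MKL partners, CREB with its coactivators, MEF2 and STAT3), Stat3 rose (0.51 ± 0.15, SE; adjusted p = 0.0141, and 0.0604 without control 2 or 0.0769 without control 3) and 0 fell. At an unadjusted p under 0.05, and by DESeq2 and limma-voom, 0 fell as well. Higher were 2 at an unadjusted p under 0.05, 1 by DESeq2 and 2 by limma-voom. Elk1 did not pass by edgeR (0.79 ± 0.29, adjusted p = 0.0516) but did by limma-voom (adjusted p = 0.0467). The median log2 fold change of these 16 was -0.0032. The MAP kinase cascade, with 22 genes tested, had 4 higher (18.2%) and 2 lower (9.09%), shares near or below those of all tested genes. Higher were the adaptors Sos1 (0.96 ± 0.14; adjusted p = 3e-05) and Grb2 (0.72 ± 0.18; adjusted p = 0.00565), the kinase Mapk3, which is ERK1 (1.08 ± 0.13; adjusted p = 5.08e-06), and its substrate Rps6ka1 (1.46 ± 0.17; adjusted p = 3.26e-06). Nras (-0.33) and Rps6ka4 (-0.75) were lower, calls that were lost without control 2 (adjusted p = 0.122 and 0.0563) and in further fits.

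Of 13 other feedback inhibitors of MAP kinases, 4 fell and 1 rose on the same log2 scale. The receptor signalling inhibitors Spry1 and Spry2 (-1.06 ± 0.30; adjusted p = 0.0109), the EGF receptor inhibitor Errfi1 (-1.25 ± 0.28; adjusted p = 0.00213) and the phosphatase Dusp14 (-1.62 ± 0.32; adjusted p = 0.000825) were lower, and Dusp4, a nuclear MAP kinase phosphatase, was higher (1.88 ± 0.33; adjusted p = 0.000273). Spry1 had 8, 2 and 2 counts in trSrebf1 and 16, 25 and 11 in control, and passed the filter on low counts through its control libraries alone. The call of Spry1 was lost without control 2 (adjusted p = 0.0503) and that of Spry2 without control 1 (0.0671). Dusp4 thus moved against Dusp1 and Dusp6 of the same family.

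The machinery through which ZFP36 and BTG proteins work was measured as well. Of 33 genes of deadenylation, decapping and the exosome, 0 were lower by edgeR, against 2 at an unadjusted p under 0.05 and 1 each by DESeq2 and limma-voom. Higher were 4 by edgeR and limma-voom and 2 by DESeq2, 12.1% by edgeR against 17.2% of all tested genes: Cnot10 (0.47 ± 0.13; adjusted p = 0.00832), Ddx6 (0.53 ± 0.14; adjusted p = 0.00974), Exosc1 (0.34 ± 0.12; adjusted p = 0.0382) and Exosc7 (1.24 ± 0.39; adjusted p = 0.0221). The calls of Exosc1 and Exosc7 were lost without control 2 (adjusted p = 0.0900 and 0.0679) and without other libraries, and that of Ddx6 with total counts (0.0556). Exosc7 had 1 control library above the filter's cut and passed it through trSrebf1, where it is high. Of 13 other proteins that bind AU-rich or stem-loop elements, Celf1 rose (1.04 ± 0.11; adjusted p = 9.98e-07) and Zc3h12a, the endonuclease regnase-1, fell (-1.30 ± 0.26; adjusted p = 0.000814). Among 14 other AP-1 and bZIP partners, Mafg, a small Maf protein like Maff (0.79 ± 0.20; adjusted p = 0.00545), Bach1 (1.07 ± 0.18; adjusted p = 0.000173) and the stress factor Ddit3 (0.81 ± 0.26; adjusted p = 0.0230, and 0.105 without trSrebf1 1) rose, and 0 fell by edgeR, DESeq2 or limma-voom or at an unadjusted p under 0.05.

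Of 23 other immediate early genes, 10 were lower, 1 was higher and the median log2 fold change was -0.44. Nr4a3, the remaining NR4A receptor, had the smallest p of those that fell (-2.28 ± 0.19; adjusted p = 2.28e-07), followed in order of p by the kinase Sik1 (-0.97 ± 0.12; adjusted p = 4.07e-06) and Csrnp1 (-1.20 ± 0.15; adjusted p = 6.84e-06). Plk3, a stress kinase, rose (2.26 ± 0.16; adjusted p = 6.63e-09). Of 17 other genes of the early response, most for secreted or surface products and many with AU-rich messages, 14 were lower and 1 was higher. Their median log2 fold change was -1.21. Il6 and Ccl7, both counted as lower and named after their values were seen, had 1 trSrebf1 library each above the filter's cut. The prostaglandin synthase Ptgs2 (-1.88 ± 0.20; adjusted p = 1.14e-06) and thrombospondin Thbs1 (-1.23 ± 0.14; adjusted p = 1.83e-06) fell, and the angiogenic factor Vegfa rose (1.56 ± 0.14; adjusted p = 1.36e-07).

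**Figure D5:**
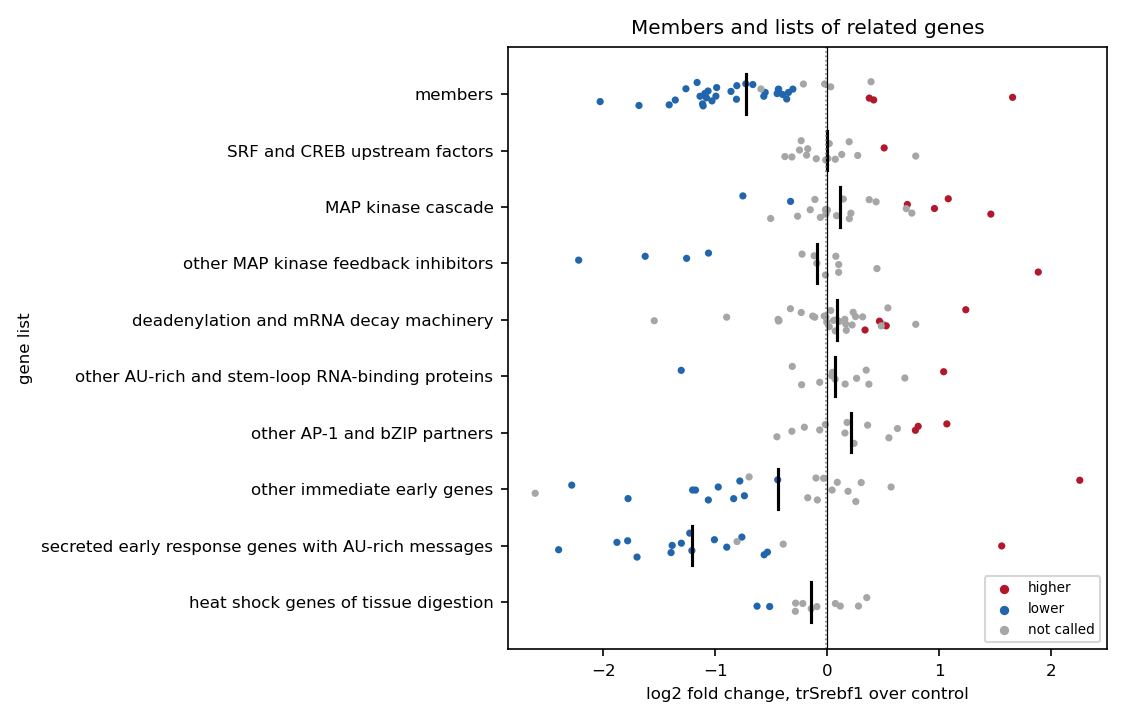
Log2 fold change, trSrebf1 over control, of the 37 tested members and of the tested genes of 9 related lists; each point is a gene and the black bars are medians. The medians lie at -0.73 for the members and -1.21 for the list of mostly secreted early response genes, and near 0 for upstream factors and for the decay machinery.

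Members with and without the nonamer shown above were found in both directions. Of the 8 tested members with the nonamer, 6 were lower and 1 higher (median log2 fold change -0.83), and 23 of the 29 without it were lower and 2 higher (median -0.59). Among other tested genes the median was -0.01 with no nonamer (8353 genes), 0.03 with 1 (596 genes), 0.10 with 2 (117 genes) and -0.06 with 3 or more (69 genes). The shorter pentamer ATTTA had a median density of 2.48 per kb in the tested members, against 1.21 in all tested genes with a 3' untranslated region. These counts are a description, made with the changes known, and were not tested.

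In the promoters, 30 of the 38 members had an entry among the RefSeq windows, which run from 250 bases before to 50 bases after the start. Fosl1, Cebpd, Egr1, Egr3, Klf10, Myc, Ier2 and Zfp36l2 had no entry. Sites outside the windows were not examined, so a member without a match here may carry the element elsewhere. A gene with several starts counted once, with a match in any of its windows. On either strand, a CArG box (CC, then 6 bases of A or T, then GG) was found in Egr2, Dusp5 and Zfp36, 10.0% of the 30 members, against 1.65% of 7446 tested genes with an entry. The element TGACGTCA was found in Maff, Dusp1 and Btg2 (10.0%, against 3.48%). The shorter TGACG, which the whole element also contains, was in 17 members (56.7%, against 36.6%). The AP-1 site TGANTCA was in Klf9 and Zfp36l1 (6.67%, against 6.10%), and the EGR site GCGTGGGCG in Maff alone (3.33%, against 1.53%). The 3 members with TGACGTCA held 2 that fell, Dusp1 and Btg2, and 1 that rose, Maff.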

How the data were processed

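The 6 deposited tables hold whole-number tag counts per gene symbol, 1 per library, as the authors made them. Bowtie2 2.2.5 and the build mm10 are named per the submitters' processing notes; the counter, the annotation and strand handling: not given in the sources used here. The test was edgeR 4.0.16 under R 4.3.3 (TMM, filterByExpr with a minimum count of 10 and total of 15, robust quasi-likelihood fit, group as the only term, Benjamini-Hochberg over all 10194 tested genes, two-sided threshold 0.05, prior count 0.125). The SE is the size of the log2 fold change over the square root of F. The members and lists were chosen with earlier results of these data known. All members could be named; from each related list, up to 4 tested genes of smallest p and every gene of a direction with 5 or fewer; of cell markers, the 2 most abundant and any past the threshold; 1 gene that this rule names is not reported here. Batf, Areg and markers without a row, such as Ptprc, were not analysed here. On simulated counts for 9890 genes, the test recovered 54% of genes changed by 1 and 12% of those changed by 0.5 on the log2 scale, with 2 false calls. The changed genes were drawn at random from tested genes of all levels, so these shares do not apply to the members as a set. Counts were drawn with a spread set by mean level alone, without extra scatter of single genes or libraries, and 200 genes were changed. The 2 false calls therefore do not measure the error rate in these data. Within a group, chi-square per degree of freedom between libraries was 4.52 to 8.13, so no library was treated as a copy of another. Alternatives were other scalings, leaving out Ctsd, other filters, DESeq2 1.42.0, limma-voom 3.58.1, a replicate block and leaving out each library. Sequences were read from GRCm38 with GENCODE M21 and from RefSeq windows on GRCm38.p6; motif and AU-rich counts were chosen after the changes were seen.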

Additional observations from a re-analysis of the deposited data

How the results depend on the processing

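Of 37 tested members, 30 kept their call under every alternative that tested them, and no member changed direction in a call; 25 of the 29 lower calls and 1 of the 3 higher calls (Gadd45b) held throughout. With upper-quartile factors 1 member was higher, where Maff and Btg1 were lost; these factors moved the median of all genes to -0.10, against -0.01 with TMM. Leaving out 1 library at a time gave 26 to 29 lower and 2 to 3 higher members. It also gave 6 to 8 pairs of related genes whose ratios did not overlap, against 5 with all libraries. Leaving out a library can only keep or raise that count of pairs, so it does not show whether the ratios are stable. Libraries of the same replicate number share only that number: the correlation of deviations between same-numbered libraries was 0.0026, -0.12 and -0.063, and no trSrebf1 library correlated best with the control library of its own number. With a replicate block 1174 genes were lower and 1646 higher, among them 27 members lower and 3 higher; Junb (adjusted p = 0.0504) and Gadd45g (0.105) were lost. Members with few tags, such as Fosl1, Myc and Dusp5, are limited by depth.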
